A study of Mus musculus with 2 samples.

Results

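The data describe 9 genes of chemokines that attract lymphocytes and their receptors, Cxcl9, Cxcl10, Cxcl16, Ccl17, Ccl22, Cxcr3, Cxcr6, Ccr4 and Ccr7, out of 32285 genes counted. The genes were taken by symbol, and each symbol had 1 row in the count matrix. Single-cell RNA was measured in 2 libraries of mouse pancreatic tumors grown from KPC cells, a line from a mouse model of pancreatic cancer that carries a Cre driven by the Pdx1 promoter, injected into the pancreas of young male C57BL/6 mice. The iIRE library came from residual tumor 3 days after insufficient irreversible electroporation, in which needle electrodes give electric pulses that destroy only part of the tumor. The control library came from tumors without pulses, called untreated in the study's results and needle-inserted in its methods. The number of mice behind a library is not given in the sources used here, and the tumor cells of both libraries derive from 1 cell line. With 1 library per group, the values compare these libraries and not the treatments, and no test between them was possible.

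CXCL9 and CXCL10 are interferon-induced ligands of CXCR3, a receptor of activated T cells and NK cells. CXCL16 is made as a membrane protein, can be shed from the surface, and binds CXCR6, which marks resident and effector T cells. CCL17 and CCL22 bind CCR4, a receptor of regulatory and helper T cells, and are known products of maturing dendritic cells. CCR7 answers to CCL19 and CCL21 and guides mature dendritic cells and naive or central memory T cells to lymph nodes.

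In mm10 the CXCR3 ligands are neighbors on chromosome 5, with Cxcl9 at 92321347 to 92328079 and Cxcl10 at 92346638 to 92348889, both on the minus strand and 18558 bases apart. The CCR4 ligands are neighbors on chromosome 8, with Ccl22 at 94745590 to 94751699 and Ccl17 at 94810453 to 94812036, both on the plus strand and 58753 bases apart. Cxcl16 lies on chromosome 11 from 70453983 to 70459984 and Ccr7 on the same chromosome from 99144196 to 99155077, both on the minus strand. Cxcr6 lies on chromosome 9 from 123806475 to 123811760 on the plus strand, Ccr4 on chromosome 9 from 114490316 to 114504916 and Cxcr3 on chromosome X from 101731535 to 101734269, both on the minus strand. The promoters of both neighbor pairs are shown because the genes of a pair were read in the same classes of cells. Each window holds 300 bases, from 250 before the RefSeq start to 50 after it, in GRCm38.p6, written 5′ to 3′ on the gene's strand. Windows were found for 7 of the 9 genes, and there was none for Cxcl16 and Ccr7. Capitals mark matches, on either strand, to the interferon response element (GAAA, any 2 bases, GAAA), the interferon-gamma activated site (TTC, any 3 bases, GAA) and the NF-kappaB consensus.
Cxcl9, chr5:92328030-92328329, minus strand: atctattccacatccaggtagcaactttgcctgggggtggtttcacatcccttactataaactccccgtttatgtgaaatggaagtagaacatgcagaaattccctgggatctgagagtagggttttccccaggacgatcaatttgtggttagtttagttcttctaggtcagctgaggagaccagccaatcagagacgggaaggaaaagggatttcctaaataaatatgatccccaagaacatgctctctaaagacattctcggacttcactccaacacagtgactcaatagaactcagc
Cxcl10, chr5:92348840-92349139, minus strand: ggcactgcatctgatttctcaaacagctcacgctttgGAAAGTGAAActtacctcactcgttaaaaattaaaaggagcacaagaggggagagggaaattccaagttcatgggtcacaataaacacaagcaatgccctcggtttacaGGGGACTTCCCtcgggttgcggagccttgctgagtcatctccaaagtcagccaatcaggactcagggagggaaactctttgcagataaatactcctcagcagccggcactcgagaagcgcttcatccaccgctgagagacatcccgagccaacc
Ccl17, chr8:94810203-94810502, plus strand: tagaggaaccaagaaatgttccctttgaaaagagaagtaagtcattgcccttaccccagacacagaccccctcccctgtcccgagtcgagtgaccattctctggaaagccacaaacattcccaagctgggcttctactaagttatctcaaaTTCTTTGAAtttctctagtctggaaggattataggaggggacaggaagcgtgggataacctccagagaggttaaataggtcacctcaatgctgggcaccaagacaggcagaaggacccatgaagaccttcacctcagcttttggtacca
Ccl22, chr8:94745434-94745733, plus strand: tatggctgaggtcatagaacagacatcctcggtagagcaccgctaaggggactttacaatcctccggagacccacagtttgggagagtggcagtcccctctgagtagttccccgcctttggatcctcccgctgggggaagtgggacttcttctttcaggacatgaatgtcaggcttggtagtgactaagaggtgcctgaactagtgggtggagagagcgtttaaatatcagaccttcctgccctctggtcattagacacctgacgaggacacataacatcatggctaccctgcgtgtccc

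The Cxcl10 window held 1 interferon response element 213 bases before the start, GAAAGTGAAA. It also held 2 overlapping NF-kappaB matches, 104 and 103 bases before the start. The Ccl17 window held 1 interferon-gamma activated site 99 bases before the start, TTCTTTGAA. The windows of Cxcl9, Ccl22, Cxcr3, Cxcr6 and Ccr4 held no match to these letters. Among 32851 RefSeq windows of this length, 3.44% held the interferon response element, 8.30% the interferon-gamma activated site and 5.81% the NF-kappaB consensus, so these matches are a description of the letters only.

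The libraries held 19433 barcodes for iIRE and 18538 for control, of which 18827 and 17812 cells passed the quality filters, with a median of 6798 and 8549 UMIs, counts of distinct RNA molecules. The ending of a barcode was taken to give its library by the number in the library name. By this reading cells that passed held a mean of 11715 UMIs in the iIRE library and 13723 UMIs in the control library. The study states both more cells and a higher mean UMI count for iIRE, so its cell numbers fit this reading and its mean depth fits the other. If the endings stood for the other order, every difference between the libraries below would change its sign. Cells were put into classes by counts of marker genes, none of them among the 9 genes, and each class name stands for cells like that type by these markers. Dendritic cells numbered 52 in the iIRE library, 0.276% of its cells, and 131 in the control library, 0.736%. T/NK cells numbered 28 in the iIRE library, 0.149%, and 75 in the control library, 0.421%. Macrophage/monocyte cells numbered 840 and 849, and tumor cells 16119 and 14867. Fibroblasts, neutrophils, osteoclast-like cells and endothelial cells had 27 to 154 cells per library. Cells that passed several gates numbered 219 and 355 and were left out of the classes, and 1136 and 1169 cells passed none. In the median dendritic cell, markers of macrophages and monocytes made 1.2 of 10000 UMIs and those of T/NK and tumor cells 0. In the median T/NK cell all other marker lists were at 0. The median tumor cell also carried fibroblast markers, at 25.2 of 10000 UMIs.

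Each gene had its highest level in 1 or 2 classes. Levels are UMIs of a gene per 1000000 UMIs (CPM) of the summed cells of a class, and intervals are exact 95% Poisson intervals that cover counting error only. Dendritic cells held 67.4% of all UMIs of Ccl22, 58.4% of those of Ccr7 and 51.9% of those of Ccl17, although they numbered only 183. T/NK cells held 37.3% of the UMIs of Cxcr6, 34.5% of those of Cxcr3 and 19.6% of those of Ccr4, while the far more numerous tumor cells held 50.7%, 20.7% and 64.7% of them. Macrophage/monocyte cells held 49.5% of the UMIs of Cxcl9 and 34.4% of those of Cxcl10, and tumor cells 35.9% and 46.0%. The UMIs of Cxcl16 lay mostly in tumor cells, 65.7%, since there were 30986 of these, while its level there was 34.8 CPM, against 381 CPM in macrophage/monocyte cells and 364.8 CPM in dendritic cells.

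**Figure D1:**
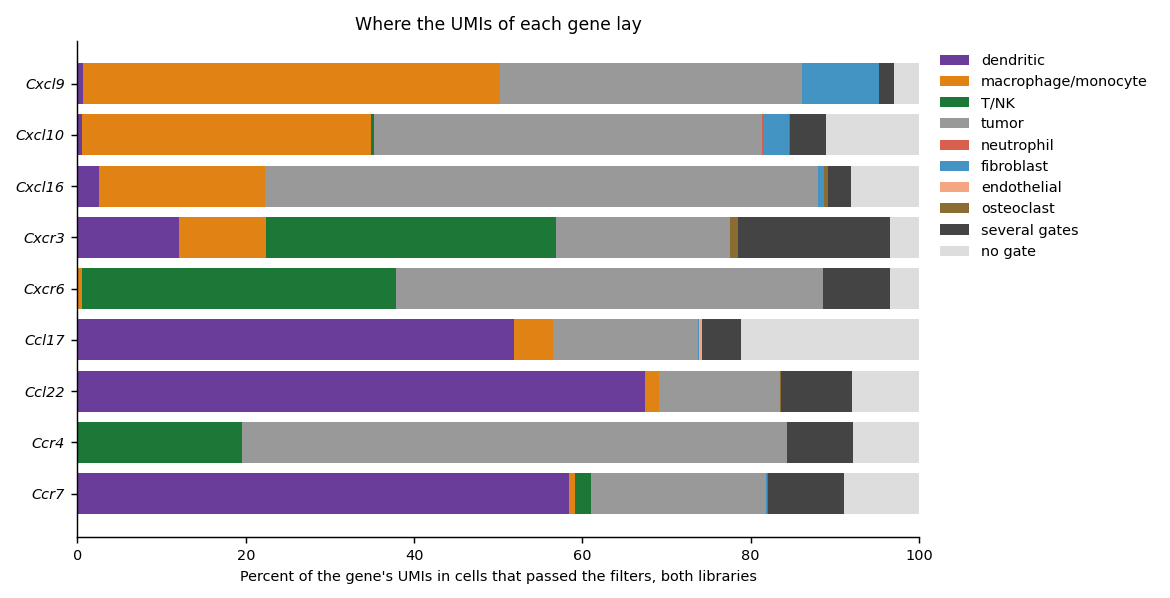
Share of the UMIs of each gene in cells that passed the filters, in percent, by marker-gated class with both libraries together. Dendritic cells hold over 50% of Ccl17, Ccl22 and Ccr7, and tumor cells hold 65.7% of Cxcl16 because of their number.

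Tumor cells were the check for free RNA, since markers of other cells found there measure it. Dendritic markers stood in tumor cells at 0.103% to 0.330% of their level in dendritic cells, and Ccl17, Ccl22 and Ccr7 at 0.122%, 0.0788% and 0.132%. T/NK markers stood in tumor cells at 0.0275% to 0.269% of their level in T/NK cells, Cxcr3 at 0.0604% and Cxcr6 at 0.137%. Values of these 5 genes in tumor cells are therefore read as background. Ccr4 stood at 0.332%, above the range of the T/NK markers, on 33 UMIs in 33 tumor cells. Macrophage markers stood in tumor cells at 0.679% to 1.88% of their macrophage/monocyte level, whereas Cxcl16 stood at 9.12%, Cxcl10 at 3.67% and Cxcl9 at 1.98%. The tumor level was thus above the range of these markers for Cxcl16 and Cxcl10, and only just above it for Cxcl9. Cells that also reached the macrophage marker limit were set aside from the tumor class, so this range was limited by the gates.

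**Figure D2:**
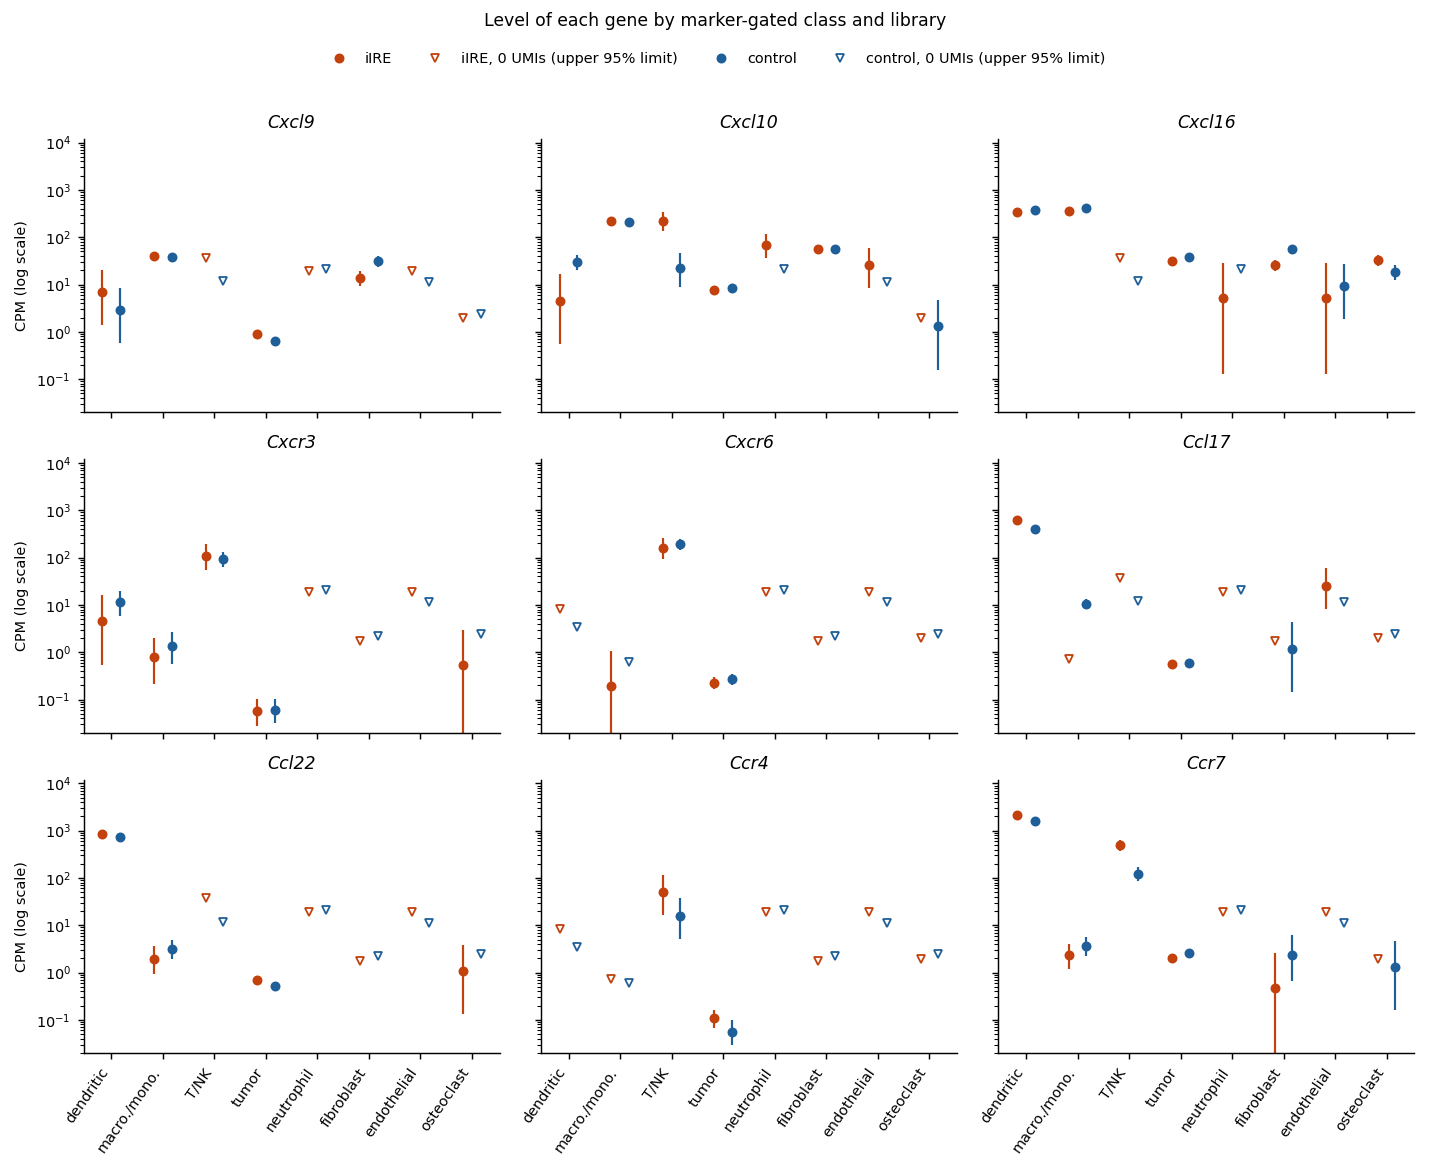
Level of each gene in CPM on a log axis by marker-gated class, iIRE left and control right, with exact 95% Poisson intervals. Open triangles are upper limits where a library had 0 UMIs. Ccr7, Ccl17 and Ccl22 are highest in dendritic cells, Cxcr3, Cxcr6 and Ccr4 in T/NK cells, and Cxcl16 stands at about the same level in dendritic and macrophage/monocyte cells.

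Cxcl9 and Cxcl10, the CXCR3 ligands, were at similar levels in the macrophage/monocyte cells of both libraries. Cxcl10 had 225.1 CPM in iIRE macrophage/monocyte cells (interval 212.3 to 238.4), against 212.9 CPM in control cells (201.4 to 224.9). The same number of cells, 194, had a Cxcl10 UMI in each library, 23.1% of the iIRE and 22.9% of the control cells. After every cell was thinned to 2000 UMIs the shares were 15.3% and 14.2%. Cxcl9 had 40.0 CPM in iIRE cells (34.7 to 45.9), against 38.5 CPM in control cells (33.7 to 43.8). These UMIs came from few cells, 22 in the iIRE library and 28 in the control library. A single control cell held 71 of 232 Cxcl9 UMIs, and without the highest cell of each library the levels were 34.2 CPM in iIRE cells and 26.7 CPM in control cells, a log2 ratio of 0.27. The log2 ratio of all cells, iIRE over control with 10 CPM added to each level, was 0.04 for Cxcl9 and 0.08 for Cxcl10. A ratio past 1.2-fold on this scale is called higher or lower, while each interval given is that of the plain ratio without the added CPM.

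The 2 ligands overlapped in part. Of the 50 macrophage/monocyte cells with Cxcl9, 21 (42.0%) also had Cxcl10, against 367 of the 1639 without it (22.4%). Gbp2, a GTPase induced by interferon, was found in 56.0% of the Cxcl9 cells and 10.4% of the others. In cells with Cxcl10 the share with Gbp2 was 16.8%, against 10.3% in cells without it. These shares were not taken at equal depth. In the C1q-marker macrophages, which express complement genes, Cxcl10 had 235.9 CPM in the iIRE library and 215.7 CPM in the control library. In cells with more monocyte than C1q markers it had 26.2 CPM on 7 UMIs and 81.1 CPM on 10 UMIs.

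Outside the macrophages, Cxcl10 was past 1.2-fold in dendritic and T/NK cells, in opposite directions and on few UMIs. Dendritic cells had 2 Cxcl10 UMIs in 2 of 52 iIRE cells, 4.53 CPM, against 32 UMIs in 13 of 131 control cells, 30.2 CPM. The log2 ratio was -1.47, with an interval of the plain ratio from -5.84 to -0.77. Over both libraries Cxcl10 stood in dendritic cells at 10.4% of its macrophage/monocyte level. Macrophage markers stood there at 0% to 13.7%, with a median of 0.935%. The upper end was Mrc1 alone, and the next marker, Adgre1, stood at 1.43%. Cxcl10 was within the range only through Mrc1, and it is not told apart from free RNA. T/NK cells had 22 Cxcl10 UMIs in 4 of 28 iIRE cells, 221.1 CPM, against 7 UMIs in 5 of 75 control cells, 22.5 CPM, a log2 ratio of 2.83. A single iIRE T/NK cell held 17 of the 22 UMIs, and without the highest cell of each library the levels were 51.3 CPM in iIRE and 13 CPM in control cells, with an interval of the log2 ratio from -0.23 to 4.32. None of the 9 T/NK cells with Cxcl10 had a dendritic marker, and 1 had a macrophage marker UMI. Cells that also passed the dendritic or macrophage gate were set aside, so these counts were limited in advance. Ccr7 was found in 4 of these 9 cells, against 11 of the other 94. Tumor cells had 7.56 CPM in the iIRE library and 8.42 CPM in the control library, with 1 UMI in the median positive cell and 114 and 139 UMIs in the highest. Of 1561 tumor cells with Cxcl10, 40.2% had Isg15, an interferon-induced gene, against 29.2% of the others. These shares were not taken at equal depth, and the part of depth in them was not tested.

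Fibroblasts had Cxcl10 at 56.5 CPM in iIRE and 56.8 CPM in control cells. Their Cxcl9 had 13.7 CPM in 13 of 154 iIRE cells, against 31.1 CPM in 3 of 122 control cells. A single control fibroblast held 47 Cxcl9 UMIs and a single control fibroblast 58 Cxcl10 UMIs. Without the highest cell of each library the order turned for Cxcl9, to 10.5 CPM in iIRE cells and 3.02 CPM in control cells, and Cxcl10 stood at 49.8 and 22.3 CPM. In both genes the order or the closeness of the libraries thus depended on the highest cells.

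Cxcr3, the receptor of these ligands, was a T/NK gene with a second small source. It had 110.5 CPM in iIRE T/NK cells (55.2 to 197.8), on 11 UMIs in 9 of 28 cells, against 93.3 CPM in control cells (62.5 to 134.0), on 29 UMIs in 17 of 75 cells. The shares of cells were 32.1% and 22.7%, and 23.7% and 18.2% after thinning, beside 0.0742% of tumor cells, whose median depth was 7583 UMIs against 3172 in T/NK cells. The interval of the log2 ratio ran from -0.90 to 1.29, so a difference was not detectable at this depth. Dendritic cells had Cxcr3 in 10 of 183 cells, all 14 UMIs in cells of the cDC1 type, conventional dendritic cells that present antigen to CD8 T cells. Of these 10 cells 9 had Clec9a and 7 had Xcr1, both among the markers that set the cDC1 subset, and 0 had Ccr7, Ccl17 or Ccl22. In dendritic cells the T/NK markers stood at 0% to 0.0851% of their T/NK level, where Cxcr3 stood at 9.56%. Cells that also passed the T/NK gate were set aside, so this marker range was limited by the gates. In cDC1 cells Cxcr3 had 23.9 CPM in the iIRE library on 2 UMIs, against 37.2 CPM in the control library on 12 UMIs.

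Cxcl16, the ligand of CXCR6, was the most widely found of the 9 genes. It had 351.7 CPM in iIRE macrophage/monocyte cells (335.7 to 368.3), against 406.1 CPM in control cells (390.2 to 422.5). The log2 ratio was -0.20 (interval -0.30 to -0.12), under the 1.2-fold line. The shares of cells with a UMI were 72.6% and 81.9%, and 46.4% and 52.8% at equal depth. Tumor cells stood at 31.5 CPM (30.8 to 32.3) in the iIRE library, against 37.7 CPM (36.9 to 38.5) in the control library, also with a log2 ratio of -0.20. Dendritic cells had 348.6 CPM in the iIRE library (295.7 to 408.2) and 371.5 CPM in the control library (335.7 to 410.1), with overlapping intervals. Fibroblasts had 25.9 CPM in iIRE cells, against 57.4 CPM in control cells, and without the highest cell of each library 21.8 and 50.2 CPM. Osteoclast-like cells had 32.3 CPM in the iIRE library and 18.3 CPM in the control library. T/NK cells had 0 UMIs in 103 cells, with an exact upper limit of 8.99 CPM. In this class a floor of 3 UMIs is 7.31 CPM, and 3 cells are 2.91% of the cells. The level of Cxcl16 was thus below that of the control library in 4 of the 5 classes with over 50 UMIs. Of these 4, only fibroblasts were past 1.2-fold, with a log2 ratio of -0.91. Osteoclast-like cells were past 1.2-fold higher, at 0.58.

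Within the dendritic cells Cxcl16 was highest in the mature subset, cells with at least 3 of 8 maturation markers. It had 602.9 CPM in iIRE and 731.7 CPM in control mature cells, 277.8 and 281.5 CPM in cDC2 cells, and 251.5 and 235.7 CPM in cDC1 cells. Monocyte-marker cells had 56.2 and 32.4 CPM, against 367.8 and 413.9 CPM in C1q-marker macrophages. Adam17 and Adam10, the proteases that shed CXCL16, had nearly the same levels in the macrophage/monocyte cells of both libraries. Adam17 had 131.5 CPM in iIRE and 131.7 CPM in control cells, and Adam10 had 112.2 and 112.1 CPM.

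Cxcr6 was read almost only in T/NK cells, among the classes above background. It had 160.8 CPM in iIRE T/NK cells (91.9 to 261.1), on 16 UMIs in 9 of 28 cells, against 189.8 CPM in control cells (144.5 to 244.8), on 59 UMIs in 27 of 75 cells. The interval of the log2 ratio ran from -1.14 to 0.58. Dendritic cells had 0 Cxcr6 UMIs in 183 cells, with an exact upper limit of 2.455 CPM, and macrophage/monocyte cells had 1 UMI in 1689 cells. In the T/NK cells of both libraries, Cxcr6 was found in 14 of 25 cells with Cd8a or Cd8b1 (56.0%), 4 of 25 with Foxp3 (16.0%), 2 of 15 with Cd4 (13.3%) and 1 of 20 with at least 2 NK markers. Of the cells with a gamma-delta T cell marker, 8 of 19 had it (42.1%).

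Cxcr3 followed another pattern over the T/NK cells. It was found in 40.0% of cells with Cd8a or Cd8b1, 36.0% of those with Foxp3, 33.3% of those with Cd4, 15.0% of those with NK markers and 10.5% of those with a gamma-delta marker. Of 26 cells with Cxcr3, 10 also had Cxcr6, against 26 of 77 without Cxcr3. The marker groups overlap, and at a median depth of 3172 UMIs a cell without a UMI may still express a gene. The iIRE library had only 3 T/NK cells with Cd8a or Cd8b1 of 28 (10.7%), against 22 of 75 in the control library (29.3%), and 9 cells with Foxp3 (32.1%), against 16 (21.3%). The exact intervals of these shares overlapped.

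**Figure D3:**
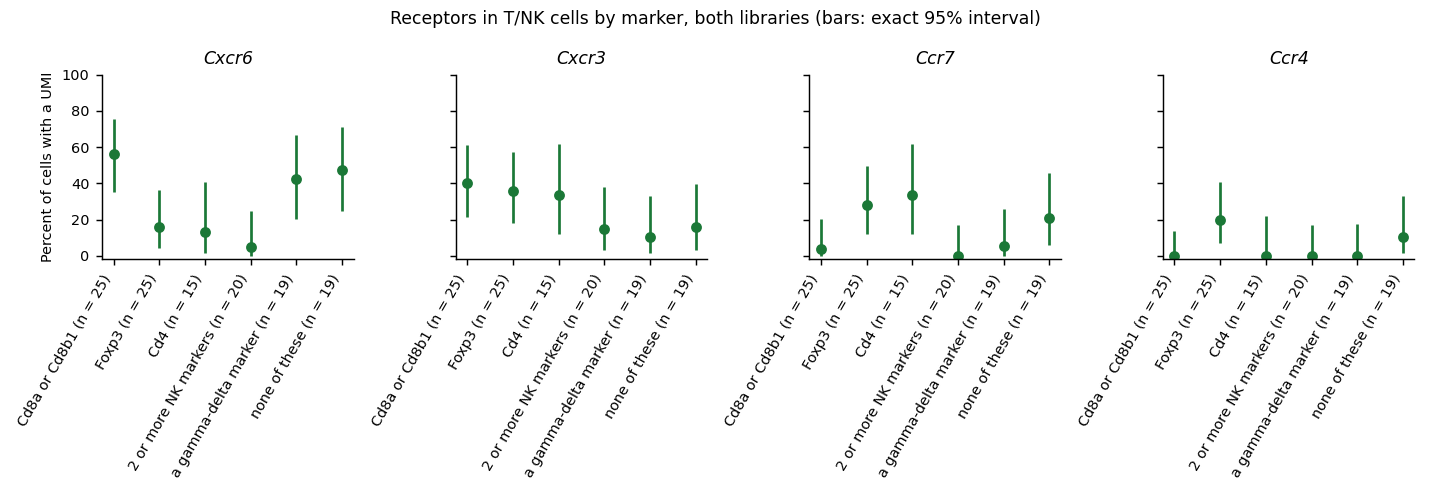
Percent of T/NK cells with a UMI of Cxcr6, Cxcr3, Ccr7 or Ccr4 by the marker the cells carried, both libraries together, with exact 95% intervals. The markers overlap. Cxcr6 is highest in cells with Cd8a or Cd8b1 (56.0%), and Ccr4 was found in cells with Foxp3 and in cells with none of the markers.

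Ccl17 and Ccl22, the CCR4 ligands, were dendritic cell genes. Ccl17 had 624.7 CPM in iIRE dendritic cells (553.2 to 702.9), against 409.2 CPM in control cells (371.6 to 449.6), a log2 ratio of 0.60 (interval 0.39 to 0.83). Cells with a UMI made 46.2% of the iIRE and 42.7% of the control dendritic cells, and 0.725% of fibroblasts. Ccl22 had 871.4 CPM in iIRE dendritic cells (786.5 to 962.9), against 746.8 CPM in control cells (695.7 to 800.7), a log2 ratio of 0.22, under the 1.2-fold line. It passed the line by the mean over cells, at 0.53, and without the 10% of cells with the most UMIs, at 0.47. Without the highest cell of each library the log2 ratio fell to 0.12, with an interval from -0.07 to 0.31. Ccl22 was found in 51.9% and 40.5% of the cells, and 0 of 276 fibroblasts had a UMI. Over all dendritic cells both ligands thus had their higher level in the iIRE library, Ccl22 under the 1.2-fold line and dependent on the highest cells.

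The subsets did not share this order. In mature dendritic cells Ccl22 had 2201 CPM in the iIRE library (1964 to 2459), against 2880 CPM in the control library (2676 to 3096), a log2 ratio of -0.39. Per cell it ran from 0 through a median of 11 to 58 UMIs in 21 iIRE cells, and from 0 through 10 to 74 in 41 control cells, so the cells overlapped widely. Ccl17 had 1304 CPM in mature iIRE cells (1123 to 1505), against 950.8 CPM in control cells (835.0 to 1078), with a median of 5 UMIs, against 1 UMI. The 3 highest mature cells held 54.3% of the iIRE and 53.5% of the control Ccl17 UMIs. Without the highest cell of each library the levels were 1008 and 788.8 CPM, with an interval of the log2 ratio from 0.03 to 0.68. In cDC2 cells, the conventional dendritic cells that present mainly to CD4 T cells, Ccl22 had 505.7 CPM in 16 iIRE cells, against 87.8 CPM in 45 control cells, a log2 ratio of 2.40. The 3 highest cells held 81.7% of the iIRE and 61.8% of the control UMIs, and without the highest cell of each library the ratio was 1.92. Ccl17 had 641.1 CPM in iIRE cDC2 cells, against 387.4 CPM in control cells, and 322.2 and 301.0 CPM without the highest cell. cDC1 cells had 0 UMIs of either ligand in 9 iIRE cells, and 3 of Ccl17 and 6 of Ccl22 in 34 control cells.

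Maturation markers also differed among the cDC2 cells. Of them, 7 of 16 iIRE cells and 13 of 45 control cells carried 1 or 2 of the markers that define the mature subset. Ccl22 stood at 938.2 CPM in these 7 iIRE cells on 63 UMIs, against 137.4 CPM in the 13 control cells on 14 UMIs. A single iIRE cell held 33 of the 63 UMIs. In cDC2 cells without any such marker Ccl22 stood at 109.2 CPM in 9 iIRE cells on 8 UMIs. In 32 such control cells it stood at 70.1 CPM on 20 UMIs. Mature cells made 40.4% of the iIRE dendritic cells (interval 27.0% to 54.9%), against 31.3% of the control cells (23.5% to 40.0%). The part of this makeup in the class level of Ccl17 and Ccl22 was not tested.

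**Figure D4:**
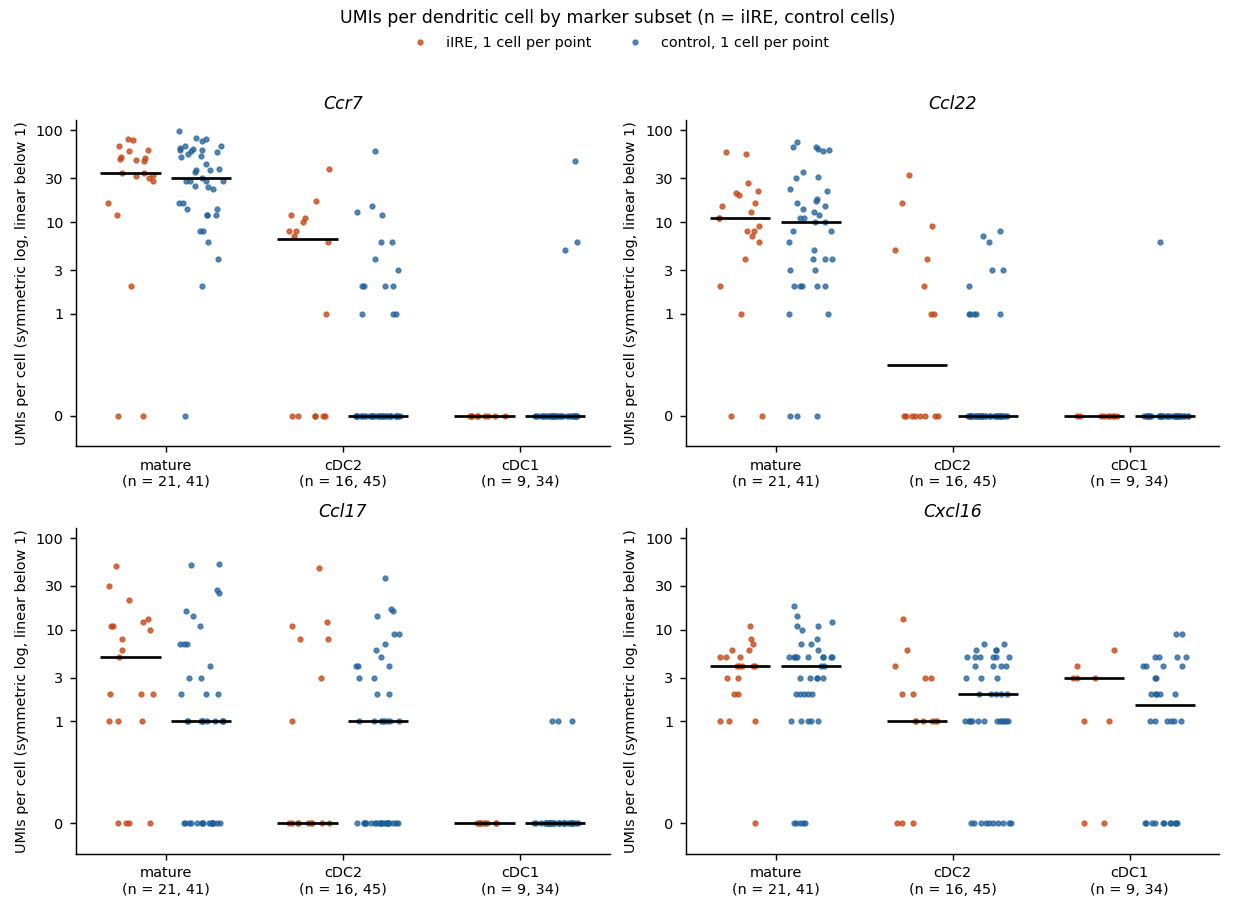
UMIs per cell, on a symmetric log axis, of Ccr7, Ccl22, Ccl17 and Cxcl16 in 3 subsets of dendritic cells set by markers, iIRE left and control right. Each point is a cell and each black line a median. The medians of Ccr7, Ccl22 and Ccl17 are 0 in cDC1 cells of both libraries, and the mature cells of the libraries overlap.

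Ccl17 in macrophage/monocyte cells was read in the control library alone. It had 0 UMIs in 840 iIRE cells, against 64 UMIs in 16 of 849 control cells, 10.6 CPM. Set against a floor of 3 UMIs in the iIRE cells, this is at least 18.2-fold lower in iIRE. The exact interval of the log2 ratio gives a weaker bound, -3.85, and -3.32 without the highest control cell. The 3 highest control cells held 67.2% of the UMIs. Of the 16 cells, 11 had Mgl2 and 2 had Cd209a, genes that cDC2 cells also express, and all 16 had C1qa. In macrophage/monocyte cells Ccl17 stood at 1.21% of its dendritic level, and dendritic markers at 0.133% to 1.65% of theirs. Their part in the result was not tested. Ccl22 in macrophage/monocyte cells had 10 UMIs in iIRE and 19 UMIs in control cells. Cells outside all gates with at least 5 Ccl17 UMIs numbered 5 in the iIRE library and 7 in the control library, and every one had 1 dendritic marker, short of the 2 that the gate required.

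Ccr4, the receptor of both ligands, was found in 7 T/NK cells. It had 5 UMIs in 4 of 28 iIRE cells, 50.2 CPM (16.3 to 117.3), and 5 UMIs in 3 of 75 control cells, 16.1 CPM (5.22 to 37.5). The log2 ratio was 1.21 with an interval from -0.48 to 3.76, so a difference was not detectable at this depth. Of the 7 cells, 5 had Foxp3, the factor of regulatory T cells, among 25 cells with Foxp3 in all. By library these were 4 of the 4 iIRE cells with Ccr4 and 1 of the 3 control cells. None of the 25 cells with Cd8a or Cd8b1 and none of the 15 with Cd4 had a Ccr4 UMI.

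Ccr7 was high in dendritic cells and lower in T/NK cells. It had 2107 CPM in iIRE dendritic cells (1974 to 2247), against 1633 CPM in control cells (1557 to 1712), a log2 ratio of 0.37 (interval 0.25 to 0.48). In mature cells the libraries were close, with 5699 CPM in iIRE cells (5314 to 6105) and 5987 CPM in control cells (5690 to 6294). The median mature cell had 34 and 30 UMIs, and 19 of 21 iIRE and 40 of 41 control cells had at least 1. In cDC2 cells Ccr7 had 840.5 CPM in the iIRE library, against 335.7 CPM in the control library, and 619.0 and 183.2 CPM without the highest cell. It was found in 10 of 16 and 15 of 45 of these cells. In cDC1 cells it had 0 UMIs in 9 iIRE cells, against 58 UMIs in 3 of 34 control cells, of which 1 cell held 47.

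Ccr7, Ccl17 and Ccl22 were found in part in the same dendritic cells. All 3 were present in 22 of 52 iIRE and 35 of 131 control cells, and none of them in 21 and 52 cells. Of 91 cells with Ccr7, 74 had Ccl22 (81.3%) and 64 had Ccl17 (70.3%), against 6 and 16 of the 92 cells without it. In cells with Ccl17, 23 of 24 iIRE cells (95.8%) also had Ccl22, against 37 of 56 control cells (66.1%). Il4i1, an enzyme of mature dendritic cells that breaks down phenylalanine, was found in 65.9% of the Ccr7 cells and 3.26% of the others, and Fscn1, the actin-bundling protein fascin, in 61.5% and 7.61%. Both are among the 8 markers that set the mature subset, and Il4i1 is also a marker of the dendritic gate.

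In T/NK cells Ccr7 had 492.4 CPM in the iIRE library (364.3 to 651.0), on 49 UMIs in 5 of 28 cells, against 122.2 CPM in the control library (86.5 to 167.8), on 38 UMIs in 10 of 75 cells. The log2 ratio was 1.93 with an interval from 1.37 to 2.66. The highest iIRE cell held 28 UMIs and the highest control cell 20, and without them the levels were 217.8 and 58.6 CPM. None of these 15 cells had Fscn1 or Ccl22, and 1 had a dendritic marker. Cells that also passed the dendritic gate were set aside, so this count of dendritic markers was limited in advance. Ccr7 was found in 7 of 25 T/NK cells with Foxp3 and 5 of 15 with Cd4, against 1 of 25 with Cd8a or Cd8b1 and 0 of 20 with NK markers. The share of cells with Ccr7 was 17.9% in iIRE and 13.3% in control cells, and 1.45% in fibroblasts, which were deeper.

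Counted over the classes, past 1.2-fold in the level with 10 CPM added, the 9 genes are set beside all genes as follows. In dendritic cells 6 of the 9 genes had the minimum of 10 UMIs over both libraries. Of these, 2 were higher in iIRE (Ccl17 and Ccr7), where 25.9% of all 8764 genes counted were, and 2 were lower (Cxcl10 and Cxcr3), where 25.8% were. In macrophage/monocyte cells 7 genes had enough UMIs, 0 were higher, where 7.14% of 11900 genes were, and 1 was lower (Ccl17), where 4.13% were. In T/NK cells 5 genes had enough UMIs, 3 were higher (Cxcl10, Ccr4 and Ccr7), where 28.6% of 5615 genes were, and 0 were lower, where 36.5% were. In tumor cells 9 genes had enough UMIs and 0 passed the line, where 0.569% of 19325 genes were higher and 0.507% lower. All of the 9 but Cxcl16 were under 10 CPM there, so the added 10 CPM largely set this 0. The plain log2 ratio in tumor cells was 0.47 for Cxcl9 (interval 0.14 to 0.80) and -0.41 for Ccr7 (-0.60 to -0.22). For Ccr4 it was 0.94 (-0.15 to 2.10). The 3 genes higher in T/NK cells had 10 to 87 UMIs each over both libraries. The median log2 ratio of the members was 0.07 in dendritic, -0.14 in macrophage/monocyte, 1.21 in T/NK and -0.01 in tumor cells, beside medians of all genes of 0.00, 0.02, -0.07 and 0.00.

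**Figure D5:**
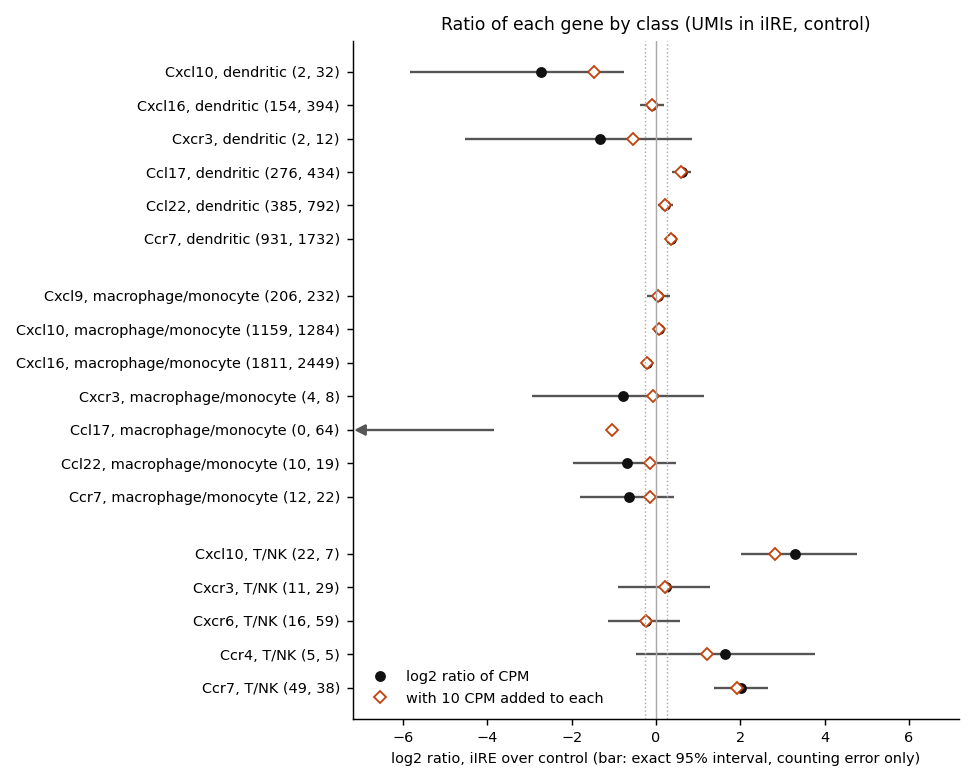
Log2 ratio of the level, iIRE over control, for each gene with at least 10 UMIs in dendritic, macrophage/monocyte and T/NK cells, with exact 95% intervals of the plain ratio. Black points are plain ratios, open diamonds have 10 CPM added to each level, dotted lines mark 1.2-fold, and the arrow marks Ccl17, with 0 iIRE UMIs in macrophage/monocyte cells. The widest intervals belong to genes with few UMIs.

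Other chemokines for lymphocytes and monocytes were read in the same classes. Of 18 further ligands in the matrix, 10 had enough UMIs in macrophage/monocyte cells, 2 higher and 1 lower in iIRE, with a median log2 ratio of 0.05, where 7.14% of all genes were higher and 4.13% lower. Ccl2, which attracts monocytes, had 2717 CPM in iIRE and 2565 CPM in control macrophage/monocyte cells, and Ccl7, a related ligand, had 2168 and 2148 CPM. In T/NK cells 5 ligands had enough UMIs, 3 higher and 1 lower, where 28.6% and 36.5% of all genes were. Ccl5, which attracts T cells, had 1779 CPM in iIRE T/NK cells, against 3098 CPM in control cells, and Ccl4, which attracts monocytes and T cells, had 1337 CPM, against 402.1 CPM. In dendritic cells 6 had enough UMIs, 3 higher and 1 lower, where 25.9% and 25.8% of all genes were, with Ccl5 at 2159 CPM in iIRE and 2660 CPM in control cells and Ccl4 at 393.8 and 332.9 CPM. Of 16 further receptors, 5 had enough UMIs in T/NK cells, 2 higher and 2 lower, beside the same shares of all genes in that class. Ccr8, a receptor of regulatory T cells, had 180.9 CPM in iIRE cells on 18 UMIs, against 247.7 CPM in control cells on 77 UMIs, and Ccr2, the CCL2 receptor, had 90.4 and 186.6 CPM. In dendritic cells 7 receptors had enough UMIs, 1 higher and 3 lower, where 25.9% and 25.8% of all genes were, and Ccrl2, an atypical receptor that binds chemerin, had 330.4 CPM in iIRE and 380.0 CPM in control cells. In macrophage/monocyte cells 7 had enough UMIs, of which 0 were higher and 1 was lower, where 7.14% and 4.13% of all genes were. There Ccrl2 had 440.0 and 519.8 CPM, and Cx3cr1, the fractalkine receptor, 220.2 and 280.7 CPM. Of the ligands 16 and of the receptors 15 had enough UMIs in tumor cells, and 0 passed the line. Most of these genes were under 10 CPM there, so the added 10 CPM largely set this 0. Ccl8 had 4.86 CPM in iIRE and 2.50 CPM in control tumor cells, with an interval of the plain ratio from 0.81 to 1.12. Xcl1 had 0.093 and 0.286 CPM, with an interval from -2.47 to -0.85.

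The interferon-gamma pathway, which induces Cxcl9 and Cxcl10, was listed with 24 genes. In T/NK cells 19 had enough UMIs, of which 13 were higher and 0 lower in iIRE, with a median log2 ratio of 0.53, where 28.6% of all genes were higher and 36.5% lower, with a median of -0.07. Ifngr1, a chain of the interferon-gamma receptor, had 1206 CPM in iIRE and 932.9 CPM in control T/NK cells, and Psmb8, an immunoproteasome subunit, 984.8 and 785.0 CPM. In macrophage/monocyte cells 22 had enough UMIs, 7 higher and 2 lower, with a median of 0.13, where 7.14% and 4.13% of all genes were higher and lower. Psmb8 had 322.4 CPM in iIRE and 293.7 CPM in control cells, Ifngr1 217.7 and 228.3 CPM, and Irf8, a transcription factor of myeloid cells, 140.0 and 177.8 CPM. In dendritic cells 19 had enough UMIs, 2 higher and 5 lower, with a median of 0.05, where 25.9% and 25.8% of all genes were higher and lower. Psmb8 had 887.2 CPM in iIRE and 859.0 CPM in control dendritic cells, and Irf8 had 538.7 and 756.3 CPM. In tumor cells 23 had enough UMIs and 0 passed the line.

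The maturation list, with 23 genes that all had enough UMIs in dendritic cells, had 1 higher and 10 lower in iIRE, with a median log2 ratio of -0.22, where 25.9% of all genes were higher and 25.8% lower. Some of its genes also served in the gates. Fscn1 had 713.0 CPM in iIRE dendritic cells, against 1575 CPM in control cells, and within mature cells, which it helped to set, 2208 CPM, against 6159 CPM. Cd83, a surface protein of mature dendritic cells, had 912.1 and 857.2 CPM. Of 29 genes of T cell state, 26 had enough UMIs in T/NK cells, 14 higher and 5 lower, with a median of 0.37, where 28.6% of all genes were higher and 36.5% lower. Gzma, a granzyme of cytotoxic cells, had 1588 CPM in iIRE and 958.7 CPM in control T/NK cells, and Tnfrsf4, a costimulatory receptor, had 1126 and 643.4 CPM. Gzmb, another granzyme, had 1015 and 276.7 CPM, with 41 of its 101 iIRE UMIs in 1 cell.

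By the Pearson correlation of log2 levels over 13 profiles of classes and libraries with at least 50 cells, the genes most like Ccr7 were St8sia1, Btla and BC035044 (r = 0.997, 0.996 and 0.995). Those most like Ccl22 were Kmo, Gm13546 and Xcr1 (each r over 0.99), and those most like Ccl17 were Kynu, H2-Eb2 and Prss30 (r = 0.999, 0.996 and 0.995). Cxcr3 was most like Tnfrsf4, Cd226 and Clnk (r = 0.998, 0.997 and 0.993), and the genes most like Cxcr6 included Gimap4 and Lime1 and those most like Ccr4 included Gzmb and Tnfrsf25. The r of the last 2 receptors with these genes rounded to 1, because only the control T/NK profile stood above the added 10 CPM. Cxcl10 was most like Dhrs3, Cmklr1 and Tmx4 (r = 0.947, 0.928 and 0.895), Cxcl9 most like Abca9, Gm36862 and Apold1 (r = 0.960, 0.955 and 0.947), and Cxcl16 most like Tifa, B4galt6 and Rab7b (r = 0.952, 0.941 and 0.941). The profiles come from the same 2 libraries and differ in depth, so these values describe shared classes only.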

How the data were processed

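Single-cell RNA was measured in 1 iIRE and 1 control library with the 10x Genomics 5′ chemistry. The deposited values are raw UMI counts per gene and barcode, which the authors made with Cell Ranger and STAR on mm10, and the matrix header names Cell Ranger 7.0.1. The ending of a barcode was read as its library by the number in the library name. The methods name an older Cell Ranger release than the header.

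Following the cell filters in the methods, a cell needed 200 genes, 1000 UMIs and a complexity (log10 of its genes divided by log10 of its UMIs) of 0.7, and cells with mitochondrial or hemoglobin UMIs over 5% were dropped. The libraries shared 458 barcode sequences, kept as separate cells. Classes were gated by markers, and the gate limits were set after the data were seen. Host classes had under 5 tumor marker UMIs per 10000 and at least 3 of their markers. Dendritic cells needed 2 of 14 markers and under 50 macrophage marker UMIs per 10000, which macrophage/monocyte cells had to reach. Osteoclast-like cells needed 4 markers and 20 UMIs per 10000. Tumor cells needed 2 markers and 10 UMIs per 10000. No doublet caller was run, and cells that passed several gates were set aside. Of the 183 dendritic cells 67 had exactly 2 markers, and of the 103 T/NK cells 2 had exactly 3.

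UMIs were summed per class and library. Ratios had 10 CPM added and needed 10 UMIs. Their exact 95% conditional binomial intervals are for the plain ratio and, like the Poisson and Clopper-Pearson intervals, cover counting error only. A count of 0 was set to a floor of 3. Shares were also computed after thinning to 2000 UMIs, leaving out shallower cells. The 9 genes and all lists were chosen with earlier results of these data known. All 9 genes, the 2 to 4 genes of each list with the highest CPM and the 3 most alike genes with at least 50 UMIs were named. Some genes under this rule are not reported here. Fscn1 in mature cells and the genes of the co-detection counts were added. Python 3.11.15, numpy 2.4.6, pandas 2.3.3, scipy 1.17.1 and matplotlib 3.10.9 were used, and the ratio steps were tested on simulated data. Coordinates came from GENCODE M21 and promoters from RefSeq. Alternatives of the added CPM, centring, filters, gates and cells are given in the closing section.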

Additional observations from a re-analysis of the deposited data

Results flagged for a closer look

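Cxcl10 was lower in iIRE than in control dendritic cells, with a log2 ratio of -1.47 on 2 and 32 UMIs, and higher in iIRE than in control T/NK cells, with a log2 ratio of 2.83 on 22 and 7 UMIs. The opposite directions drew attention, and the difference between the classes was not tested. A single iIRE T/NK cell held 17 of the 22 UMIs. In dendritic cells Cxcl10 stood at 10.4% of its macrophage/monocyte level, and macrophage markers at 0% to 13.7%, the upper end through Mrc1 alone. The next of these markers, Adgre1, stood at 1.43%. In T/NK cells Cxcl10 stood at 32.3% of that level and these markers at 0% to 0.745%, a range limited by the gates. Ccl17 was higher in iIRE than in control dendritic cells, with a log2 ratio of 0.60, and lower in iIRE macrophage/monocyte cells, where it had 0 UMIs, with a log2 ratio of -1.04 that depends on the added 10 CPM. This difference was not tested either.

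Cxcl10 was read in neutrophils, a class outside the main comparison, at 67.1 CPM in the iIRE library (interval 35.7 to 114.7), on 13 UMIs in 5 of 123 cells, while 118 control neutrophils had 0 UMIs. Set against 3 UMIs in the control cells, this is at least 3.96-fold higher in iIRE, while the exact interval of the log2 ratio gives a weaker bound, 1.48, and 0.64 without the highest iIRE cell. Without the highest iIRE cell the level was 41.5 CPM. Over both libraries Cxcl10 stood in neutrophils at 16.0% of its macrophage/monocyte level. Macrophage markers stood there at 0.296% to 16.5%, with a median of 1.005%. The upper end was Adgre1 alone, and the next marker, Ms4a7, stood at 1.90%. Cxcl10 was within the range only through Adgre1, and it is not told apart from free RNA.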

How the results depend on the processing

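Of 27 log2 ratios in the 4 main classes, 0 called ratios reversed under the alternatives run, and the number on the same side of 1.2-fold was 27 with 10% mitochondrial UMIs allowed and with 1 more marker gene required. With 1 CPM added in place of 10, 4 members were lower in macrophage/monocyte cells in place of 1 (Ccl17 with Cxcr3, Ccl22 and Ccr7), and 1 (Ccr7) in tumor cells in place of 0. With 50 CPM added, 1 was lower in dendritic cells in place of 2, Cxcr3 moving to -0.17. With a minimum of 50 UMIs, 0 were lower in dendritic cells and 1 was higher in T/NK cells. Without the 10% of cells with the most UMIs, 1 was higher in macrophage/monocyte cells (Cxcl10, at 0.41) and 1 was lower in T/NK cells (Cxcr6, at -0.30), and Ccl22 in dendritic cells reached 0.47. Without shared barcode sequences Cxcr6 was the 1 member lower in T/NK cells, at -0.26. By the mean over cells 2 were lower in macrophage/monocyte cells, with Cxcl16 at -0.29, and Ccl22 in dendritic cells reached 0.53. Leaving out the highest cell of each member, an alternative chosen after seeing the data, gave 1 higher in macrophage/monocyte cells (Cxcl9, at 0.27) and 1 lower in T/NK cells (Cxcr6, at -0.45). Centring moved only Cxcr3 in T/NK cells past the line, to 0.29. The cause of these moves was not tested. No paired analysis was possible because each group has 1 library. The T/NK comparison rests on 99511 UMIs in the iIRE library, where 3 UMIs are 30.2 CPM.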

Other observations

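Cxcl13, the ligand of CXCR5 that attracts B cells and follicular helper T cells, was among the further ligands and was chosen after its values were seen. It had 106 UMIs in 4 of 840 iIRE macrophage/monocyte cells, 20.6 CPM, against 3 UMIs in 1 of 849 control cells, 0.497 CPM. A single iIRE cell held 70 of the UMIs. Ccl2 in dendritic cells had 504.7 CPM in the iIRE library, against 151.8 CPM in the control library, and without the highest cell of each library 115 and 77.1 CPM.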
